A study of Mus musculus with 16 samples.

Results

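The MEKK3 axis was followed through 9 genes taken by name: Map3k3, Map2k5, Mapk7, Mef2a, Mef2c, Klf2, Klf4, Klf6 and Nos3. All 9 passed the filter on low counts, out of 14838 genes tested and 54193 genes annotated. RNA-seq libraries came from mouse brain microvascular endothelial cells (mBMEC) of adult C57BL/6J mice of both sexes, 8 to 10 weeks old, which carried a floxed Ccm3 (Pdcd10) allele and the tamoxifen-inducible Cdh5(PAC)-CreERT2, a recombinase driven by an endothelial promoter. KO cells had been exposed to 4-OH-tamoxifen (4-OHT), and WT cells were the same floxed, Cre-carrying cells without it, so that loss of Ccm3 and exposure to 4-OHT went together in every library and cannot be told apart. Cultures were pooled from several brains and enriched for endothelial cells with puromycin. WT cells gave 3 untreated libraries, 2 with 10 µM propranolol for 24 h (WT+P) and 2 with 100 nM rapamycin for 24 h (WT+R). KO cells gave 3 libraries of each kind (KO, KO+P and KO+R). Depth was 18.83 to 26.2 M counts a library, and replicates with the same number are treated below as one culture, since their values deviated together in each comparison made.

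MEKK3, encoded by Map3k3, is the kinase at the top of a cascade that runs through MEK5 (Map2k5) to ERK5 (Mapk7), which activates MEF2 transcription factors (Mef2a, Mef2c). These raise KLF2 and KLF4, zinc finger factors that endothelial cells make under laminar flow and that raise endothelial nitric oxide synthase (eNOS, Nos3) and thrombomodulin and lower endothelin and adhesion molecules. The CCM proteins hold MEKK3 in check, and brain endothelium that has lost one of them is known for high KLF2 and KLF4. Propranolol blocks beta-adrenergic receptors, and rapamycin inhibits the mTORC1 kinase complex.

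KLF factors bind CACCC boxes, and the 250 bases before the start of the Ensembl canonical transcript were searched. Those of Klf2, Klf4 and Nos3, the 2 KLF genes at the centre of the axis and their target, are shown with each CACCC, or GGGTG on the other strand, in capitals (GRCm39, 5′ to 3′ on the strand of the gene). The stretches are chr8:73072476-73072725 on the plus strand for Klf2, chr4:55532529-55532716 on the minus strand for Klf4 and chr5:24569537-24569786 on the plus strand for Nos3. For Klf4 the last 62 of the 250 bases are not shown, since they lie inside the gene as annotated, in a longer transcript, and 188 are left. The Klf2 stretch lies in an intron of a long transcript of Eps15l1 on the other strand.
Klf2: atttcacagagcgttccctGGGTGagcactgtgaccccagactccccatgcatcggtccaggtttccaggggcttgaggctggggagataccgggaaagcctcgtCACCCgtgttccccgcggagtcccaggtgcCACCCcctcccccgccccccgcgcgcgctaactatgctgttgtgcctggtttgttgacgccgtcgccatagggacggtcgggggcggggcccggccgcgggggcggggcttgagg
Klf4: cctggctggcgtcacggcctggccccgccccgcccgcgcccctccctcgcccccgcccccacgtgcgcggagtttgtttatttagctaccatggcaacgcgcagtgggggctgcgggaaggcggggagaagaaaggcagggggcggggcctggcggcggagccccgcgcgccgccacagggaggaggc
Nos3: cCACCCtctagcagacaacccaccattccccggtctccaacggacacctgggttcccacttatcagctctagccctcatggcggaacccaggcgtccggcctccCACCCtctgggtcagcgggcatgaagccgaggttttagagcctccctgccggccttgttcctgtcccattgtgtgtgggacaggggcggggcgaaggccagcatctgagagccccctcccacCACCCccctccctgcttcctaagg
Klf2 held the letters 231, 145 and 115 bases before its start and Nos3 held them 249, 146 and 24 bases before, while Klf4 held none in its 250 bases. Of 21770 promoters of this length, 52.9% held at least 1 such match, so that a match is a description of the letters and no sign of binding. The MEF2 consensus, searched on both strands by its degenerate letters, was found once upstream of Klf6 and in none of the other 8 axis promoters, against 2.79% of all promoters.

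Endothelial markers were present in every library. All 12 of 12 were detected, the most abundant being Cdh5 with a mean of 3163 CPM (counts scaled to library size with TMM factors, used here to compare 1 gene between libraries), and their summed level ran from 7988 to 16010 CPM. Oligodendrocyte markers together stayed at or below 2.04 CPM and astrocyte markers at or below 7.54 CPM, and neuron markers ran from 1.75 to 28.5 CPM. Fibroblast markers summed to between 4.79 and 202 CPM, with Col1a1 the most abundant and Lum at 0 throughout.

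Pdcd10, the targeted gene, was measured first as a check of the labels. Its level was 11.5, 31.2 and 47.0 CPM in the WT libraries and 9.72, 11.0 and 9.73 CPM in the KO libraries. The library labelled WT 1 was thus close to the KO libraries and went against its label, although the treated cells of the same culture held 60.8 CPM (WT+P 1) and 52.0 CPM (WT+R 1). In KO+P it was 13.1 to 16.7 CPM, and in KO+R 7.83 to 9.53 CPM. KO against WT gave a log2 fold change of -1.56 (SE 0.40), which missed the threshold (adjusted p = 0.420, edgeR's quasi-likelihood test with Benjamini-Hochberg adjustment, as for all adjusted p-values below unless another tool is named). It passed in DESeq2 (adjusted p = 0.0242) and, leaving out WT 1 and blocking on replicate number, in edgeR (log2 -2.02, adjusted p = 0.0142), where 0.445% of all genes passed. For Mef2c, Klf2, Klf4, Nos3, Thbd, Edn1 and Thbs1, KO against WT is also given without that library, and without it 0 of the 9 axis genes passed in edgeR.

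Levels compared between genes are in TPM, which allow for transcript length as well as depth. Over the 16 libraries, 9 of them of KO cells, the mean was 366.5 TPM for Klf2, 273 TPM for Nos3, 143.7 TPM for Klf6 and 100.1 TPM for Klf4. This order differed between groups. In untreated WT cells Nos3 averaged 245.7 ± 86.3 TPM and Klf2 206.8 ± 106.1 TPM (SD, n = 3), closer than their SDs, and in KO+P Klf4 at 211.5 ± 28.8 TPM was above Klf6 at 152.4 ± 1.04 TPM (SD, n = 3). The kinases were lower, at 51.6 TPM for Map3k3, 50.7 TPM for Mapk7 and 29.7 TPM for Map2k5. Between the MEF2 genes, Mef2a reached 60.2 TPM and Mef2c 4.58 TPM, with 175 to 626 counts a library behind the latter. Klf2 was measured as a single transcript, and 1 transcript carried 99.3% of the TPM of Klf4 and 99.8% of that of Nos3.

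**Figure D1:**
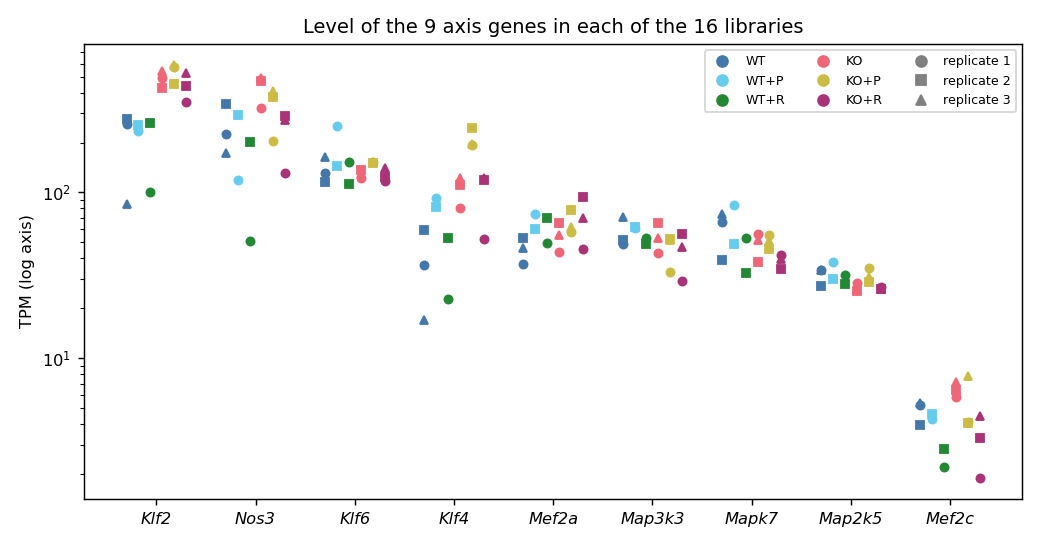
TPM (log axis) of each axis gene in each of the 16 libraries, coloured by group, with the marker shape giving the replicate number. Mef2c lies lowest in every library, and Klf2 is the highest in each library of KO cells except KO 2, where Nos3 is, while in WT cells Klf2, Nos3 or Klf6 is the highest, depending on the library.

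Loss of Ccm3 was examined first in untreated cells. No axis gene passed the threshold for KO against WT in edgeR (0 of 9, against 0.00674% of all genes tested), and 0 of 9 did in DESeq2, against 0.496%, while 2 of 9, Klf2 and Klf4, had an unadjusted p under 0.05, as had 6.07% of all genes. With DESeq2 and the replicate number as a block, both passed, as did 2.76% of all genes. Sums of other cells' markers were also compared. The pericyte and smooth muscle list summed to less in KO than in WT in 3 of 3 cultures, at 70.0, 210.4 and 154.6 CPM against 96.2, 863 and 224.1 CPM, and the microglia and macrophage list to more in 3 of 3, at 9.72, 16.1 and 26.1 CPM against 5.25, 13.0 and 9.27 CPM. The latter sum was nearly all Cd68, at 9.14, 15.3 and 25.6 CPM in KO and 4.83, 12.0 and 8.08 CPM in WT, while Ptprc and Csf1r were lower in KO in 2 of 3 cultures each and Cx3cr1, Aif1, C1qa, C1qb and Itgam stayed at or below 0.620 CPM in every library. In the pericyte and smooth muscle list, Tagln and Acta2 were lower in KO in 3 of 3 cultures. Pdgfrb, Rgs5, Cspg4, Notch3, Myh11 and Cnn1 were each higher in KO in 2 of 3. The astrocyte list summed to more in KO in 3 of 3 cultures, at 5.89, 6.64 and 3.15 CPM against 3.08, 5.23 and 1.52 CPM. That sum was nearly all Aldh1l1, at 5.89, 6.53 and 3.02 CPM in KO. All these differences of the sums held in 2 of 2 cultures under each drug, and their part in the differences between KO and WT was not tested. The measured differences are given below with their errors, in the order of the cascade.

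For the kinases, KO and WT libraries overlapped. Map3k3 had 94.2, 133.9 and 110.5 CPM in KO and 106.9, 106.3 and 136.4 CPM in WT, a log2 fold change within 1 standard error of 0 (95% interval -0.46 to 0.37). MEK5, the kinase between MEKK3 and ERK5, was at 36.1 ± 3.43 CPM in KO (SD, n = 3) and 42.0 ± 5.67 CPM in WT for Map2k5. For the ERK5 gene Mapk7, the log2 fold change was -0.22 with an interval of -0.79 to 0.36. Map2k5 and Mapk7 were lower in KO in 3 of 3 cultures, as were 22.2% of all genes, with block adjusted p-values of 0.212 and 0.360. Transcript levels of the 3 kinases do not measure their activity.

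Among the MEF2 genes, Mef2c was at 22.9 ± 3.81 CPM in KO and 17.8 ± 3.06 CPM in WT (SD, n = 3). Its log2 fold change was 0.37 (SE 0.25, adjusted p = 0.993), 0.50 without the library labelled WT 1 and 0.56 with the block as well (adjusted p = 0.224). Mef2a differed by 0.28 (SE 0.18, adjusted p = 0.980). Both were higher in KO in 3 of 3 cultures, as were 21.3% of all genes, and both sets of libraries overlapped.

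Klf2 measured 488.9, 430.7 and 572.0 CPM in the KO libraries and 268.9, 276.5 and 82.8 CPM in the WT libraries. Every KO library lay above every WT library, which held for 6.69% of all genes with KO higher, and WT 3 was far below the other WT libraries. The fitted difference was 2.38-fold (95% interval 1.29 to 4.37; adjusted p = 0.561), or 1.25 on the log2 scale (SE 0.41). With the replicate block the adjusted p was 0.203, and without the library labelled WT 1 the log2 fold change was 1.46, or 1.65 with the block (adjusted p = 0.143). Without WT 3 it was 0.86, so that this library supplied part of the difference. As in all bulk RNA, fewer cells with a transcript and less of it per cell cannot be told apart.

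Klf4 followed the same order, with 149.0, 193.3 and 219.2 CPM in KO and 68.5, 105.5 and 28.5 CPM in WT. These groups did not overlap either. The difference was 2.77-fold (95% interval 1.47 to 5.21; log2 1.47, SE 0.42; adjusted p = 0.486), and with the block the adjusted p was 0.104. Without the library labelled WT 1 the log2 fold change was 1.48, or 1.73 with the block (adjusted p = 0.111), and without WT 3 it was 1.10.

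Klf6, a KLF gene of broad expression, did not follow Klf2 and Klf4. It was at 338 ± 10.0 CPM in KO and 349 ± 42.2 CPM in WT (SD, n = 3), and its log2 fold change was within 1 standard error of 0 (95% interval -0.49 to 0.39).

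Nos3, the gene of eNOS, reached 869, 1197 and 1300 CPM in KO and 600.4, 874.6 and 418 CPM in WT. The lowest KO library lay just under the highest WT library, so the groups overlapped, yet KO was higher in 3 of 3 cultures, as for 21.3% of all genes. Its log2 fold change was 0.83 (SE 0.49, 95% interval -0.22 to 1.89, adjusted p = 0.961). With the block it was 0.82 (SE 0.31, adjusted p = 0.269). Without the library labelled WT 1 it was 0.79, and 1.18 with the block as well (adjusted p = 0.112). Since 32.7% of the exonic bases of Nos3 overlap genes on the other strand, among them Atg9b, and the libraries keep no strand, reads of these genes cannot be separated. Atg9b was at 0.27 to 13.1 CPM over all libraries. It lay higher in every KO library than in every WT library, as for 6.69% of all genes (log2 0.76, SE 0.50, adjusted p = 0.980). It lay lower in every rapamycin library than in every untreated one of its genotype, as for 13.2% of all genes in KO and 14.7% in WT (log2 -1.46 in KO, SE 0.51, adjusted p = 0.219; -1.31 in WT, SE 0.59, adjusted p = 0.383). In KO the latter passed with DESeq2 and the block (adjusted p = 0.0204), and the part of Atg9b in the values of Nos3 was not tested.

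**Figure D2:**
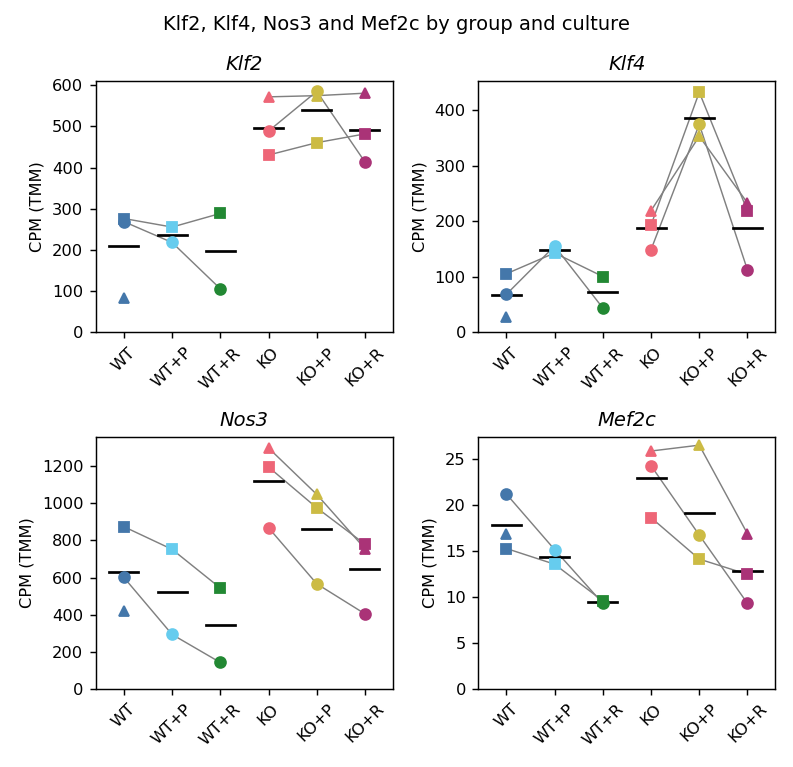
CPM (TMM-normalized) of Klf2, Klf4, Nos3 and Mef2c in each library, by group, with circles, squares and triangles for replicates 1, 2 and 3, grey lines joining libraries of a culture within a genotype, and black bars at the group means. KO lies above WT for Klf2 and Klf4, Klf4 is highest in KO+P, and Nos3 and Mef2c are lower with rapamycin in each culture.

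The genotype difference of Klf2 and Klf4 was measured again under each drug, in libraries other than the untreated ones. Klf2 had 585.3, 460.7 and 574.9 CPM in KO+P and 218.3 and 255.7 CPM in WT+P. Under rapamycin it had 413.8, 482.0 and 580.9 CPM in KO+R and 105.8 and 288.8 CPM in WT+R. All 9 libraries of KO cells, treated or not, were thus above all 7 libraries of WT cells, which was the case for 0.249% of all genes, although this grouping over drugs was chosen after the values were seen and libraries of a culture are not independent. The log2 fold changes were 1.19 (SE 0.47, adjusted p = 0.730) under propranolol and 1.32 (SE 0.47, adjusted p = 0.705) under rapamycin. For Klf4 the same differences were 1.37 (SE 0.48, adjusted p = 0.676) and 1.38 (SE 0.48, adjusted p = 0.681). Under rapamycin the size moved with the WT+R library left out. Without WT+R 1 the log2 fold change was 0.78 for Klf2 and 0.91 for Klf4, and without WT+R 2 it was 2.23 and 2.11. For Klf4, KO+P and KO+R each lay above the WT cells with the same drug. Such separation of the groups held for 7.8% of genes under propranolol and 9.43% under rapamycin. Again 0 of 9 axis genes passed in edgeR or DESeq2 in either comparison, against 0% of all genes tested in edgeR in both and 0.439% (propranolol) and 0.497% (rapamycin) in DESeq2, and in each 2 of 9 had an unadjusted p under 0.05, Klf2 and Klf4, as had 6.19% and 5.72% of all genes. With DESeq2 and the block Klf4 passed under both drugs (adjusted p = 0.0319 and 0.0178) and Klf2 under rapamycin (adjusted p = 0.0490), where 1.87% of all genes passed under propranolol and 2.1% under rapamycin.

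By group mean, Klf2 ranked KO+P (540.3 ± 69.1 CPM), KO (497.2 ± 71.0), KO+R (492.3 ± 84.0), WT+P (237 ± 26.4), WT (209.4 ± 110) and WT+R (197.3 ± 129), each with its SD over 3 libraries, or 2 for WT+P and WT+R. Neighbours in that order differed by less than the larger of their SDs except between KO+R and WT+P. Klf4 ranked KO+P (386.6 ± 41.0 CPM), KO+R (188 ± 65.9), KO (187.2 ± 35.5), WT+P (149.2 ± 8.78), WT+R (72.2 ± 40.1) and WT (67.5 ± 38.5). Here the steps from KO+P to KO+R, from KO to WT+P and from WT+P to WT+R were larger than the SDs of both neighbours. For Nos3 the order was KO (1122 ± 225 CPM), KO+P (863.8 ± 260), KO+R (646.5 ± 211), WT (631 ± 230), WT+P (522.2 ± 325) and WT+R (341.9 ± 284), and no step exceeded the larger SD of its neighbours.

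Propranolol was compared with no drug in KO cells and in WT cells. Of the 9 genes, 0 passed in either comparison in edgeR or DESeq2, against 0.00674% of all genes in each in edgeR and 1.15% (KO) and 0.861% (WT) in DESeq2. In KO cells 1 of 9, Klf4, had an unadjusted p under 0.05, as had 12.6% of all genes, and in WT cells 3 of 9, Mef2a, Klf4 and Klf6, as had 9.87%. Endothelial markers together were lower with propranolol in 5 of 5 pairs, at 8520, 10090 and 12080 CPM in KO+P against 13360, 12370 and 13830 CPM in KO and at 7988 and 11600 CPM in WT+P against 14830 and 12040 CPM in WT 1 and WT 2. The replicate 1 libraries were lowest, with the VEGF receptor gene Kdr at 59.2 CPM in KO+P 1 and 53.2 CPM in WT+P 1 against 372.8 and 300.1 CPM untreated. Kdr measured 83.4 CPM in KO+P 2, 299.9 CPM in KO+P 3 and 197.2 CPM in WT+P 2. The pericyte and smooth muscle list summed to more with propranolol in 4 of 5 pairs. It was at 149.3, 447.1 and 116 CPM in KO+P against 70.0, 210.4 and 154.6 CPM in KO. In WT+P it was at 407.8 and 1436 CPM against 96.2 and 863 CPM in WT 1 and WT 2. That sum was mostly Tagln and Acta2, each higher in 4 of 5 pairs. Rgs5 and Notch3 were lower in 5 of 5 pairs, at or below 4.44 CPM in every library. Pdgfrb, Cspg4, Myh11 and Cnn1 differed in direction between pairs. The part of these differences in the results below was not tested.

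Klf4 had the largest log2 fold changes of the 9 genes with propranolol. It measured 374.6, 432.3 and 353 CPM in KO+P, above every KO library, as did 9.58% of all genes. In WT+P it measured 155.4 and 142.9 CPM, above every WT library, as did 10.8% of all genes. It was higher in 5 of 5 pairs of treated and untreated libraries, where 14.6% of genes were. The log2 fold changes were 1.05 (SE 0.42, adjusted p = 0.354; block adjusted p = 0.132) in KO and 1.14 (SE 0.46, adjusted p = 0.475) in WT, and 1.07 without KO+P 1 and 1.08 without WT+P 1. With any 1 library left out they ran from 0.906 to 1.175 in KO and from 0.777 to 1.622 in WT. With the block and without the library labelled WT 1 the WT value was 1.425 (adjusted p = 0.769). With DESeq2 and the block Klf4 passed in KO (adjusted p = 0.0398), where 6.93% of all genes did, and not in WT (adjusted p = 0.132), where 1.17% did. The difference between the genotypes in this response was -0.10 (SE 0.62, adjusted p = 1 for the interaction).

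Klf2 did not share that pattern. Its log2 fold change with propranolol was within 1 standard error of 0 in KO (95% interval -0.75 to 0.99) and in WT (-0.79 to 1.14). Klf6 was higher in 5 of 5 pairs, by 0.32 in KO (SE 0.20, adjusted p = 0.520) and 0.51 in WT (SE 0.22, adjusted p = 0.490). The WT value turned on WT+P 1, at 641.5 CPM against 351.4 CPM in WT+P 2, and passed the threshold only without WT+P 2 (log2 0.88, adjusted p = 0.0392), where a single WT+P library is left and is assumed to vary like the other groups, and 3.54% of all genes passed.

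Mef2a was higher with propranolol in 5 of 5 pairs, with log2 fold changes of 0.36 in KO (SE 0.18, adjusted p = 0.419) and 0.52 in WT (SE 0.20, adjusted p = 0.475). Map2k5 was also higher in 5 of 5 pairs. Its log2 fold change was 0.28 in KO (SE 0.15, adjusted p = 0.441) and within 1 standard error of 0 in WT. Nos3 was lower in 5 of 5 pairs, where 15.4% of genes were, but its log2 fold changes of -0.38 in KO (SE 0.49, adjusted p = 0.767) and -0.27 in WT (SE 0.55, adjusted p = 0.910) were smaller than their standard errors. The WT value ran from -1.11 without WT+P 2 to 0.25 without WT+P 1. Its treated and untreated libraries overlapped in both genotypes. The log2 fold change of Mef2c was -0.26 in KO (SE 0.25, adjusted p = 0.677) and -0.31 in WT (SE 0.29, adjusted p = 0.760). That of Map3k3 was -0.22 in KO (SE 0.19, adjusted p = 0.651) and within 1 standard error of 0 in WT, and that of Mapk7 was within 1 standard error of 0 in both.

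Rapamycin was compared in the same way. In edgeR 0 of 9 axis genes passed in either genotype, against 1.51% of all genes in KO and 1.4% in WT, and DESeq2 gave 0 of 9 as well, against 3.19% and 3.78%. In each genotype 2 of 9, Mef2a and Mef2c, had an unadjusted p under 0.05, as had 12.5% of all genes in KO and 12.6% in WT. With the replicate block Mef2c passed in KO, where 4.98% of all genes did.

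Mef2c, a MEF2 gene needed for vessel development, measured 24.3, 18.6 and 25.9 CPM in KO and 9.27, 12.4 and 16.8 CPM in KO+R. In WT it measured 21.2, 15.2 and 16.9 CPM, and in WT+R 9.26 and 9.54 CPM. Treated libraries lay below all untreated ones in both genotypes, as did 13.2% of all genes in KO and 14.7% in WT, and Mef2c was lower in 5 of 5 pairs, where 22.9% of genes were. The difference in KO was -0.83 on the log2 scale (SE 0.26, adjusted p = 0.156), and with the replicate block it was -0.84 and passed (adjusted p = 0.0294). In WT it was -0.92 (SE 0.29, adjusted p = 0.164; block adjusted p = 0.0746), and -0.55 with the block and without the library labelled WT 1 (adjusted p = 0.249). With DESeq2 and the block Mef2c passed in both (adjusted p = 0.00309 in KO and 0.0252 in WT), as did 7.53% of all genes in KO and 6.6% in WT. The interaction was 0.08 (SE 0.38, adjusted p = 1).

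Mef2a went the other way, with 197.4, 307.5 and 243.5 CPM in KO+R and 159.5, 196.7 and 176.6 CPM in KO. Each KO+R library was above each KO library, as for 10.9% of all genes, and WT+R with 179.9 and 233 CPM was above WT with 132.1, 175.3 and 133 CPM, as for 14% of all genes. Treated cells were higher in 5 of 5 pairs, where 18.5% of genes were. The log2 fold changes were 0.49 in KO (SE 0.18, adjusted p = 0.258) and 0.49 in WT (SE 0.20, adjusted p = 0.307).

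Nos3 measured 403.6, 780.2 and 755.8 CPM in KO+R and 140.8 and 543 CPM in WT+R. All KO+R libraries were below all KO libraries, as for 13.2% of all genes, while WT+R 2 lay above WT 3. Within cultures it was lower with rapamycin in 5 of 5 pairs, as were 22.9% of all genes, with log2 differences of -1.11, -0.62 and -0.78 in KO cultures 1, 2 and 3 and of -2.09 and -0.69 in WT cultures 1 and 2. The fitted log2 fold changes were -0.80 in KO (SE 0.49, adjusted p = 0.568; block 0.120) and -0.88 in WT (SE 0.56, adjusted p = 0.588; block 0.112). With DESeq2 and the block Nos3 passed in both (adjusted p = 0.0480 in KO and 0.0241 in WT). The WT value ran from -2.16 without WT+R 2 to -0.21 without WT+R 1. With the block it was -1.08, and -0.71 when the library labelled WT 1 was left out as well (adjusted p = 0.316).

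Klf2 and Klf4 showed no such shift with rapamycin. The fold change of Klf2 in KO+R against KO was 0.99 with a 95% interval of 0.54 to 1.80, and that of Klf4 was 1.00 with an interval of 0.54 to 1.86. A change inside these bounds was not detectable at the spread between libraries. In WT cells both were also within 1 standard error of 0. The log2 fold change of Klf6 was 0.12 in KO (95% interval -0.31 to 0.56).

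None of the kinase genes passed with rapamycin in edgeR, with or without the block. Map3k3 was at 98.5 ± 23.3 CPM in KO+R and 113 ± 20.0 CPM in KO (SD, n = 3), with a log2 fold change of -0.20 (SE 0.19, adjusted p = 0.779) that turned to 0.01 without KO+R 1. Map2k5 was within 1 standard error of 0 in both genotypes. Mapk7 was lower in 5 of 5 pairs, with log2 fold changes of -0.26 in KO (SE 0.27, adjusted p = 0.789) and -0.32 in WT (SE 0.30, adjusted p = 0.753). With the block these were -0.25 (SE 0.10, adjusted p = 0.148) and -0.29 (SE 0.11, adjusted p = 0.165). No axis gene had a drug response that differed between KO and WT by the interaction test. In edgeR 0 of 9 had an adjusted p under 0.05 for each drug, against 0% of all genes for each. Also 0 of 9 had an unadjusted p under 0.05 for each drug in edgeR, against 0.721% of all genes for propranolol and 0.762% for rapamycin. In DESeq2 0 of 9 passed, against 0% of all genes for propranolol and 0.00368% for rapamycin.

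**Figure D3:**
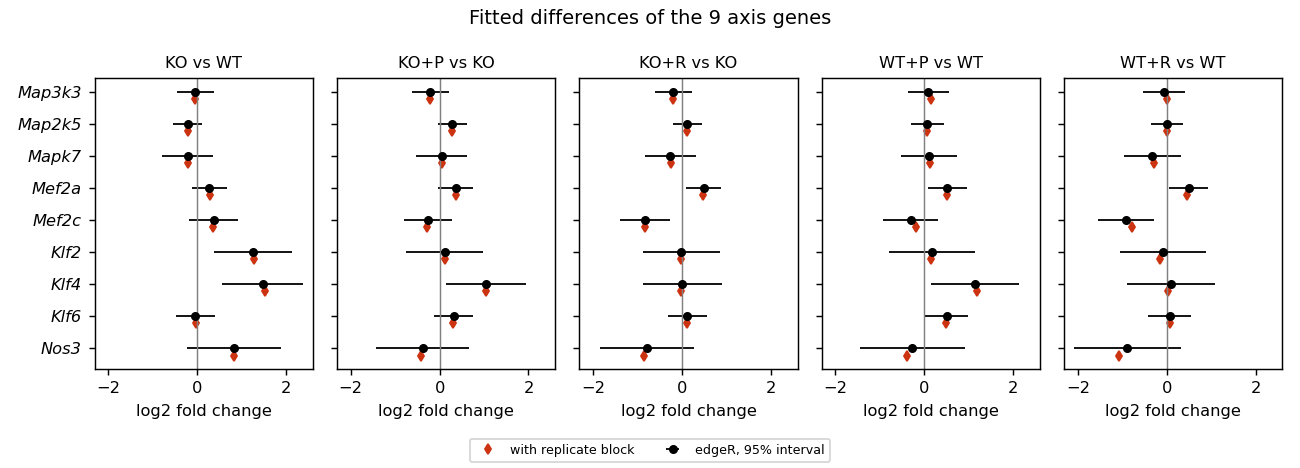
Log2 fold changes of the 9 axis genes in 5 comparisons, with black points and lines for the edgeR estimate and its 95% interval and red diamonds for the estimate with the replicate block. Klf2 and Klf4 have intervals above 0 for KO against WT, Klf4 for propranolol in both genotypes, Mef2a for rapamycin in both and for propranolol in WT, and Klf6 for propranolol in WT, while Mef2c has an interval below 0 for rapamycin in both.

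Genes known to respond to KLF2 and KLF4 were taken as lists. Of 12 genes that these factors raise, 0 passed for KO against WT in edgeR, against 0.00674% of all genes, and 1 in DESeq2, against 0.496%; their median log2 fold change was 0.53, against -0.01 for all genes, and 10 of 12 were above 0. Thbd, which encodes thrombomodulin, measured 482.3, 712.4 and 667.1 CPM in KO and 414.2, 506.5 and 252.3 CPM in WT, with overlapping groups (log2 0.67, SE 0.33, adjusted p = 0.871; 0.93 with the block and without WT 1, adjusted p = 0.0927). Of 9 genes that KLF2 or KLF4 lower, 0 passed in edgeR and 2 fell with the replicate block, where 0.182% of all genes passed, and the list median was -0.68. These 2 were Edn1, encoding endothelin-1, with 263.4, 134.4 and 133.4 CPM in KO and 542.3, 366.5 and 531.3 CPM in WT (log2 -1.44, SE 0.36, adjusted p = 0.392; block adjusted p = 0.00748), and Thbs1, encoding thrombospondin-1 (log2 -0.95, SE 0.22, adjusted p = 0.366; block adjusted p = 0.0473). With the block and without the library labelled WT 1, both still passed (adjusted p = 0.00484 for Edn1 and 0.0200 for Thbs1), as did 0.445% of all genes. For Edn1, 22.5% of the exonic bases overlap genes on the other strand. Under propranolol the same 2 genes fell with the block in KO+P against WT+P, where 0.0876% of all genes passed, and under rapamycin none passed in KO+R against WT+R in edgeR, or with the block, where 0.0944% of all genes did. The list medians in KO+R against WT+R were nonetheless 0.85 for the raised genes, with 11 of 12 above 0, and -0.81 for the lowered genes, with 1 of 9 above 0. DESeq2 called 1 gene of each list there, against 0.497% of all genes.

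Some genes of both lists passed with rapamycin, where 1.51% of all genes did in KO and 1.4% in WT. In KO+R against KO, 2 of the 12 raised genes fell, the proteoglycan-cleaving proteases Adamts1 (log2 -1.46, SE 0.33, adjusted p = 0.0480) and Adamts4 (log2 -2.52, SE 0.40, adjusted p = 0.00940). Adamts4 measured 6.35, 13.7 and 16.0 CPM in KO+R and 60.8, 76.5 and 70.7 CPM in KO. Of the 9 lowered genes, 3 rose: Thbs1 (log2 1.19, SE 0.22, adjusted p = 0.0212), Edn1 (log2 1.93, SE 0.36, adjusted p = 0.0226) and the adhesion molecule Vcam1 (log2 1.94, SE 0.35, adjusted p = 0.0169). The list medians were -0.30 for the raised and 1.30 for the lowered genes, against -0.02 for all genes.

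The same contrast was made in WT cells. Adamts1 (log2 -2.02, adjusted p = 0.0264) and Adamts4 (log2 -2.86, adjusted p = 0.0157) fell in WT+R against WT, Thbs1 (log2 1.17, adjusted p = 0.0309) and Vcam1 (log2 1.84, adjusted p = 0.0282) rose, and Edn1 passed with the block (log2 1.30, adjusted p = 0.130; block adjusted p = 0.00414). Thbs1 reached 8622 and 6206 CPM in WT+R. The block, under which 4.56% of all genes passed in WT, added Ptgds, a prostaglandin D synthase, to the genes that fell in both genotypes, with the connexin gene Gja4 falling and the tissue factor gene F3 rising in WT. The list medians in WT were -0.46 for the raised and 1.30 for the lowered genes.

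With propranolol 0 of the 12 and 0 of the 9 passed in either genotype in edgeR, 0 with the block, under which 0.142% of all genes passed in KO and 0.0809% in WT, and 0 in DESeq2. The median log2 fold change of the raised genes was -0.62 in KO and -0.47 in WT, with 3 of 12 above 0 in each, and that of the lowered genes was -0.12 and 0.33, against -0.01 and 0.00362 for all genes. Adamts1 had 243.2, 464.8 and 301.3 CPM in KO+P against 227.1, 180.5 and 247.6 CPM in KO, so that the groups overlapped. In WT+P it had 212.3 and 172.2 CPM against 155.8, 88.2 and 67.3 CPM in WT, above every WT library, as for 10.8% of all genes. Within cultures it was higher with propranolol in every pair of both genotypes, as were 14.6% of all genes. Adamts4 had 26.2, 38.6 and 40.7 CPM in KO+P, below every KO library, as for 9.11% of all genes. Its log2 fold change was -0.98 (SE 0.38, adjusted p = 0.353; block adjusted p = 0.0835). With DESeq2 and the block it passed (adjusted p = 0.00793), as did 6.93% of all genes.

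**Figure D4:**
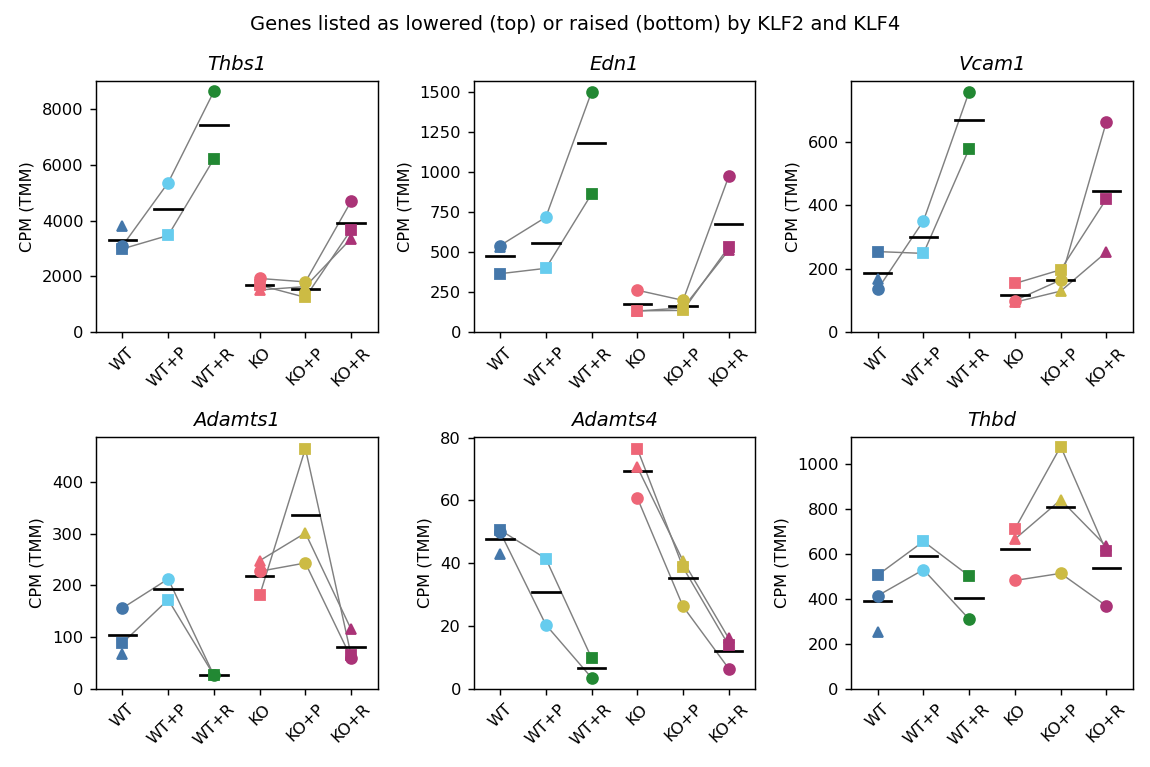
CPM of 6 genes listed as responding to KLF2 and KLF4 in each library, drawn as in the plot of Klf2 and Nos3 by culture. With rapamycin Thbs1, Edn1 and Vcam1 are higher and Adamts1 and Adamts4 lower in every culture, and Thbs1 and Edn1 are lower in KO than in WT.

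Markers of other cell types also differed with rapamycin. The pericyte and smooth muscle list summed to 96.2, 863 and 224.1 CPM in WT and 1465 and 2566 CPM in WT+R, and to 70.0, 210.4 and 154.6 CPM in KO and 451.2, 329.9 and 274.4 CPM in KO+R. Its most abundant gene was Tagln, and Acta2 rose in WT+R against WT (log2 2.74, SE 0.61, adjusted p = 0.0469), while the pericyte genes Rgs5, Kcnj8, Abcc9 and Vtn stayed at or below 1.69 CPM in every library and Pdgfrb, Cspg4 and Notch3 at or below 6.59, 5.70 and 4.44 CPM. Microglia and macrophage markers summed to 1.92 to 26.1 CPM over all libraries and to 3.44, 5.86 and 8.51 CPM in KO+R against 9.72, 16.1 and 26.1 CPM in KO. Csf1r and Cd68 fell with the block, under which 4.98% of all genes passed in KO. Csf1r was near the floor, with 12, 5 and 8 counts in KO and 0, 1 and 0 counts in KO+R. The endothelial list summed to less with rapamycin in 4 of 5 pairs. It was at 10740 and 11260 CPM in WT+R against 14830 and 12040 CPM in WT 1 and WT 2. In KO+R it was at 11930, 12590 and 13120 CPM against 13360, 12370 and 13830 CPM in KO. Of the endothelial markers, Emcn rose and Egfl7 fell in WT+R with the block, under which 4.56% of all genes passed in WT. The astrocyte and neuron lists summed to less with rapamycin in 5 of 5 pairs each. These sums were mostly Aldh1l1 and Tubb3, while the neuron genes Rbfox3, Snap25 and Syt1 stayed at or below 0.333 CPM in every library. The part of these differences in the rapamycin results was not tested.

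The remaining lists held the cascade around the axis. Of 19 other MAP kinase cascade genes, 0 passed in edgeR in any of the 9 contrasts where between 0% and 1.51% of all genes did, and 1 passed in DESeq2 in WT+R against WT, against 3.78%. Map3k2, the closest relative of Map3k3, was at 17.7 to 34.2 CPM over all libraries. Among 6 MEF2 partners 0 passed in edgeR and 1 in DESeq2 in WT+P against WT, where 0.861% of all genes did, with medians of 0.32 in KO+P against KO and 0.63 in WT+P against WT; Hdac5, a histone deacetylase that represses MEF2, measured 118.2, 120.6 and 109.5 CPM in KO+P and 80.4, 90.4 and 93.6 CPM in KO (log2 0.40, SE 0.17, adjusted p = 0.371), and Mef2d measured 102.1 to 181.0 CPM over all libraries. Of the 8 CCM complex and kinase genes tested, 0 passed in edgeR and 1, Pdcd10, in DESeq2 in each comparison of KO with WT cells, where 0.496% of all genes passed untreated, 0.439% under propranolol and 0.497% under rapamycin.

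Of 14 other KLF genes, 11 were tested. In edgeR 2 passed with rapamycin in KO, against 1.51% of all genes, and 1 in WT, against 1.4%. Klf10 fell with rapamycin, from 110.7, 105.8 and 106.2 CPM in KO to 68.3, 62.1 and 74.4 CPM in KO+R (log2 -0.66, SE 0.15, adjusted p = 0.0409). In WT+R it fell too (log2 -0.79, SE 0.17, adjusted p = 0.0334). Klf11 rose in KO+R (log2 0.93, SE 0.20, adjusted p = 0.0381) and, with the block, in WT+R (adjusted p = 0.0541; block adjusted p = 0.0144). Both encode TGF-beta-inducible factors. Klf13 rose in WT+R with the block (adjusted p = 0.0846; block adjusted p = 0.00195). Klf9, a target of glucocorticoid receptors, measured 92.1, 80.9 and 64.6 CPM in KO+P against 50.2, 44.1 and 53.6 CPM in KO (log2 0.68, SE 0.23, adjusted p = 0.326), and Klf3 differed by 0.30 between KO and WT (SE 0.15, adjusted p = 0.896).

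Around eNOS, 20 of 23 listed genes were tested. In edgeR 2 passed with rapamycin in KO, against 1.51% of all genes, and 1 in WT, against 1.4%. Nos2, the inducible synthase, fell with rapamycin, from 53.9, 63.3 and 34.2 CPM in KO to 6.30, 7.22 and 3.12 CPM in KO+R (log2 -3.18, SE 0.41, adjusted p = 0.00416), and in WT+R likewise (log2 -2.66, SE 0.48, adjusted p = 0.0178). Ddah1, which degrades an inhibitor of nitric oxide synthases, rose in KO+R (log2 0.60, SE 0.13, adjusted p = 0.0379). Cav1, whose product binds and inhibits eNOS, had a log2 fold change within 1 standard error of 0 in KO+R against KO, and so had Gch1, the first enzyme in the synthesis of the cofactor tetrahydrobiopterin. For KO against WT 0 of these 20 passed in edgeR, against 0.00674% of all genes, and 1 in DESeq2, against 0.496%.

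In all, 9 of the 84 list genes tested outside the axis passed with rapamycin in KO, against 1.51% of all genes, and 6 of 84 in WT, against 1.4%. With 1 library left out, between 2 and 7 list genes were called in KO, 2 without KO 3 or KO+R 1, and between 0 and 4 in WT, 0 without WT+R 1.

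Across the 16 libraries, the log2 CPM of Klf2 and Klf4 correlated with r = 0.882 and those of Klf2 and Nos3 with r = 0.713, as a description, since libraries share groups and cultures. The genes most like Klf2 were Fkbp1b (r = 0.967), Wfdc1 (0.941) and Endou (0.926). Those most like Klf4 were Tmbim1 (0.970), Fxyd5 (0.965) and Car5a (0.965), and those most like Nos3 were Ip6k3 (0.985), Reep2 (0.985) and Mamstr (0.982). After the mean of each replicate number was taken off, 5 of these 9 genes stayed among the 3 most alike: Fkbp1b for Klf2, Car5a for Klf4 and Mamstr, Ip6k3 and Reep2 for Nos3.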

How the data were processed

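RNA-seq libraries were poly(A)-selected, unstranded and paired-end. For each library the authors deposited expected counts and TPM per transcript in the format of Salmon, and their notes name version 1.5.2 (the study's methods name STAR with HTSeq), and the index is not given in the sources used here. The effective lengths deposited by the authors entered only an alternative. GENCODE for GRCm39 named 139544 of 140789 transcripts (99.12%). Counts of the others, 0.39 to 0.57% per library, were dropped. No column lacked a sample (0).

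Expected counts were summed over the transcripts of each gene and rounded. edgeR 4.0.16 (TMM, filterByExpr, quasi-likelihood test) in R 4.3.3 was fitted to all 16 libraries with a mean per group, and calls needed an adjusted p (Benjamini-Hochberg, over all 14838 genes tested) under 0.05 and a fold above 1.5 (interactions by adjusted p alone). CPM use TMM factors, and TPM, as the authors deposited them, compare genes. The spread between libraries (biological coefficient of variation) was 32.3%, and counting error adds little to it at this depth; correlations used a prior count of 2. The fit was tested on simulated data.

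The labels do not say that a replicate number marks a shared culture. The same-numbered libraries deviated together in every comparison made (r from 0.189 to 0.693 between pairs), so the number was taken to pair them. Over all groups, same-numbered pairs had a median r of 0.519, the lowest being 0.0323 (WT 3 with KO+P 3), and differently numbered pairs reached 0.395. The number entered as a block in an alternative, with a spread of 19%. Other alternatives were DESeq2 1.42.0, other normalization, no filter, only the libraries compared, effective lengths, calls by adjusted p alone and each library left out, and, chosen after seeing the data, DESeq2 with the block and the block without WT 1. The 9 genes and the lists were chosen with earlier results of these data known. Named genes were the 9, Pdcd10, 12 list genes fixed by name, every list gene called with or without the block (some are not reported here), and the 3 most like Klf2, Klf4 and Nos3 by Pearson's r among genes of at least 1 CPM. P-values without the block measure the spread between libraries of a group, each from a culture pooled from several mice. Libraries of 1 culture in different groups are taken there as independent. With the block, p-values measure the spread left after the level of each culture is allowed for.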

Additional observations from a re-analysis of the deposited data

Results flagged for a closer look

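Propranolol moved Map3k3 one way in every KO culture and the other in every WT culture, and the difference between the genotypes in the fitted log2 fold change was -0.31 (KO minus WT, edgeR's interaction test, adjusted p = 1). Klf2 was also split, being higher with propranolol in every KO culture and lower in every paired WT culture. It measured 585.3, 460.7 and 574.9 CPM in KO+P against 488.9, 430.7 and 572.0 CPM in KO, nearly level in culture 3. In WT+P it measured 218.3 and 255.7 CPM against 268.9 and 276.5 CPM in WT 1 and WT 2. Its fitted difference of -0.0589 on the log2 scale (adjusted p = 1) had the sign opposite to that split. The fitted WT change was 0.18 and included WT 3, the lowest WT library, which has no treated partner. With 1 library left out the difference ran from -0.31 to 0.33. How many of all genes were split in either of these ways was not counted.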

How the results depend on the processing

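The number of axis genes called stayed at 0 in every comparison under DESeq2, RLE normalization, no filter, effective lengths, only the libraries compared and calls by adjusted p alone. With the replicate block 1 was called in KO+R against KO, Mef2c, and the block changed no other axis call. With DESeq2 and the block 2 were called in KO against WT, 1 in KO+P against KO, 1 in KO+P against WT+P, 2 in KO+R against KO, 2 in KO+R against WT+R and 2 in WT+R against WT. With 1 library left out the count ran from 0 to 1 in WT+P against WT and stayed at 0 in the other comparisons.

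For the list genes, where 0 were called except 9 in KO+R against KO and 6 in WT+R against WT, DESeq2 called 5 in KO against WT, 2 in KO+P against KO, 3 in KO+P against WT+P, 3 in KO+R against WT+R, 3 in WT+P against WT and 13 in WT+R against WT. The replicate block gave 2 in KO against WT, 2 in KO+P against WT+P and 13 in WT+R against WT, and 4 in KO against WT without WT 1. DESeq2 with the block gave 7, 9, 6, 15, 9, 3 and 15 in KO against WT, KO+P against KO, KO+P against WT+P, KO+R against KO, KO+R against WT+R, WT+P against WT and WT+R against WT. Without the filter 2 were called in KO+P against KO and 1 in KO+R against WT+R. With only the libraries compared 5 were called in KO+R against KO and 0 in WT+R against WT. With 1 library left out the counts ran from 0 to 3 in KO+P against KO, 2 to 7 in KO+R against KO, 0 to 3 in WT+P against WT and 0 to 4 in WT+R against WT. Of the 9 genes most like Klf2, Klf4 and Nos3, 5 were shared after centring on the replicate number.

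Directions turned only in log2 fold changes of up to 0.31 in size. Klf2 in KO+R against KO was 0.00132 with DESeq2, 0.00236 with RLE normalization and 0.00912 with only the libraries compared, and -0.14 to 0.12 with 1 library left out. Klf2 in WT+R against WT was 0.19 with the block and without WT 1, and -0.98 to 0.47 with 1 library left out. Klf4 was -0.0198 with the block and -0.00458 with DESeq2 and the block in KO+R against KO, and with 1 library left out ran from -0.16 to 0.30 there and from -0.62 to 0.58 in WT+R against WT. Klf6 in KO+P against WT+P ran from -0.61 to 0.26, Map3k3 in KO+R against KO from -0.32 to 0.00909, and Mef2c in WT+P against WT was 0.0490 with the block and without WT 1. The cause of these shifts was not tested.

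The groups held 2 or 3 libraries with a spread of 32.3%, the library labelled WT 1 went against its label by Pdcd10, and every axis gene had at least 175 counts in every library. A fit that leaves 1 library in a group assumes that it varies like the other groups.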
